A study of Mus musculus with 6 samples.

Results

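The 9 genes described here encode the machinery that turns a resected meiotic DNA break into a strand invasion: the recombinase Dmc1, the recombinase loaders Brca2 and Hsf2bp, the Hop2-Mnd1 pair (Psmc3ip and Mnd1), and the single-stranded DNA (ssDNA)-binding proteins Rpa1, Rpa2, Meiob and Spata22. They were chosen by gene name and are 9 of the 54532 genes in the count table, with 1 row each. The RNA came from leptotene/zygotene (L/Z) spermatocytes, in which meiotic breaks are made and repair begins, sorted by flow cytometry on a Hoechst DNA stain from testes of mice at 12 days postpartum (dpp). Of the 6 libraries, 3 came from Eef1g-cKO mice, in which floxed Eef1g exons (allele made on C57BL/6J) were deleted by the germ cell driver Stra8-GFPCre, and 3 from controls, which the labels call wild type and the study describes as control littermates. Eef1g encodes the gamma subunit of the translation elongation factor eEF1. Stra8-GFPCre is active from differentiating spermatogonia onward, which is before meiosis begins. The share of the sorted cells that carried the deletion was not measured in these libraries. The labels do not tell whether the libraries of a genotype came from separate animals, and p-values then measure only the spread between these libraries, which may be technical.

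In meiosis, SPO11 cuts chromosomes and the ends are resected to leave 3′ ssDNA tails. The RPA trimer, of which RPA1 and RPA2 are the large and middle subunits, coats this ssDNA, and in meiotic cells it is joined there by the MEIOB-SPATA22 complex. BRCA2, with its meiotic partner HSF2BP, helps to replace RPA by recombinase filaments that contain DMC1, which is made only in meiosis. HOP2 (Psmc3ip) and MND1 act with the filament as it searches for and invades the homologous chromosome. Mice without DMC1, HOP2, MND1, MEIOB or SPATA22 have spermatocytes that arrest in prophase I with unrepaired breaks.

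The promoter sequences are shown for 3 of the genes: Dmc1 and Brca2, the members called higher in Eef1g-cKO by the test given below, and Spata22, whose start site is shared with a second annotated gene. The call of Brca2 was kept in only 5 of 17 alternative analyses. They are taken from RefSeq (GRCm38.p6), in which 8 of the 9 members have a promoter window of 250 bases before and 50 bases from the start site (Meiob has no entry). Each is written 5′ to 3′ on the gene's strand, ends 15 bases past the RefSeq start, and has matches to the searched motifs in capitals. The windows are chr15:79605095-79605209 on the minus strand for Dmc1, chr5:150522446-150522635 on the plus strand for Brca2 and chr11:73329631-73329755 on the plus strand for Spata22.
Dmc1: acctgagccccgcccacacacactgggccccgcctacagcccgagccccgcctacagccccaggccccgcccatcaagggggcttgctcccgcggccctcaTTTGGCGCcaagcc
Brca2: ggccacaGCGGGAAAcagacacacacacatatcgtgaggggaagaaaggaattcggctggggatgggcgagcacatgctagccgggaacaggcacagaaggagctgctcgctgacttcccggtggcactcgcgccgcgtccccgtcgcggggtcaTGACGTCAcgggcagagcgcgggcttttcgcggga
Spata22: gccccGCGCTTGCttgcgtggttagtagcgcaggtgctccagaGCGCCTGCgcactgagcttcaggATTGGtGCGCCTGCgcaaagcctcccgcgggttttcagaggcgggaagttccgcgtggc
The motifs, chosen after the sequences were seen and searched on both strands of the whole windows, were an E2F site written as TTTNNCGC, a cAMP response element (CRE) written as TGACGTCA, an NRF1 half-site written as GCGCNTGC, a CCAAT box and the CNCCTCAG element bound by STRA8. The E2F letters were found in 2 of the 8 members, Dmc1 at bases 2 to 9 after the start and Brca2 on the reverse strand at bases -168 to -161, and in 5.17% of all 32851 promoters. The CRE letters were found in Brca2 alone, at bases -20 to -13 (1.79% of all promoters). The NRF1 letters were found in Hsf2bp, Rpa2 and Spata22 and in 9.61% of all promoters, and the 3 copies in Spata22 lie at bases -105 to -98, -67 to -60 and -38 to -31. CCAAT letters were present in Psmc3ip, Rpa1, Rpa2 and Spata22 (37.4% of all promoters) and lie 1 base before the NRF1 match nearest to the start in Spata22. The STRA8 letters were in none of the 8 windows, compared with 7.94% of all promoters. These matches are descriptions of letters and were not tested as sites.

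The libraries held 763133 to 2617648 counted reads, and the lowest depth was that of Eef1g-cKO replicate 3, in which 3 reads equal 4.63 CPM (reads scaled to a common library size after TMM normalization). That library also had the highest share of ribosomal RNA genes, 9.23% against 2.73% to 6.29% in the other 5. Eef1g itself, counted over the whole gene and so including exons that Cre does not remove, fell from 220 ± 7.34 CPM in control to 136 ± 16.0 CPM (SD, n = 3; log2 fold change -0.68, edgeR adjusted p = 0.0290), without overlap; the call was kept in 9 of 17 alternative analyses. A list of 14 L/Z markers (Sycp1, other axis and synaptonemal complex genes, and Meioc) summed to 10587 to 12396 CPM in control and 23299 to 28822 CPM in Eef1g-cKO. Of these markers, 13 had enough reads to test, and Rec8 did not. The 15 spermatogonia markers summed to 1660 to 1885 CPM in control and 767 to 938 CPM in Eef1g-cKO, with Neurog3 at 0 everywhere. Dmrt1 contributes much of this sum, at 915 CPM on average in control and 551 CPM in Eef1g-cKO. Of the 8 spermatogonia markers tested, 6 were called lower and 2 were not called, and Sohlh2 had a positive log2 fold change (0.13). The 10 Sertoli markers summed to 88.5 to 315 CPM in control and 1.54 to 46.1 CPM in Eef1g-cKO, and the 10 peritubular and stromal markers to 217 to 361 CPM and 23.2 to 80.8 CPM. Markers of pachytene and later germ cells (25.2 to 44.2 CPM in control, 0 to 18.4 CPM in Eef1g-cKO), Leydig cells (8.40 to 11.4 and 1.57 to 7.28 CPM) and blood cells (7.28 to 77.9 and 3.23 to 75.7 CPM) were low in both genotypes. The pachytene and Leydig sums did not overlap between genotypes. Of 2 pachytene markers tested, Piwil1 was called lower (34, 22 and 30 reads in control, 0, 1 and 0 in Eef1g-cKO, log2 fold change -5.94, edgeR adjusted p = 0.00142). The other, Ldhc, was not called (-0.52). The sorted populations thus differed in germ cell stage markers and in somatic RNA between genotypes, and the part of these differences in the values below was not tested.

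Dmc1 was the member with the largest difference. It encodes the meiosis-specific recombinase, on chr15:79561497-79605109 (minus strand; gene coordinates are those of the count table, on GRCm38), and was already the most abundant member in control cells. Its level was 363, 352 and 362 CPM in the 3 control libraries and 1329, 992 and 1631 CPM in the 3 Eef1g-cKO libraries. The control libraries were nearly identical (359 ± 6.01 CPM, SD, n = 3), and the lowest Eef1g-cKO library lay far above all of them (1317 ± 320 CPM, SD, n = 3). The log2 fold change was 1.87 with a standard error (SE) of 0.17 (3.66-fold; 95% interval 1.51 to 2.24; adjusted p = 2.26e-06, from the quasi-likelihood test of edgeR, adjusted by Benjamini-Hochberg over the 8513 genes tested). Its log2 fold change was higher than that of 99.5% of all genes tested. In bulk RNA, fewer cells of a type and less RNA per cell cannot be told apart, and the same holds for more cells of a stage and more RNA per cell.

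The share of all reads of the 9 members that came from Dmc1 was higher in every Eef1g-cKO library. It was 28.0% (95% Wilson interval 25.9% to 30.2%), 29.5% (27.7% to 31.5%) and 29.5% (27.6% to 31.4%) in control, and 57.0% (55.2% to 58.8%), 49.3% (47.9% to 50.7%) and 58.2% (55.9% to 60.5%) in Eef1g-cKO. These intervals treat each read as an independent draw and do not cover the spread between libraries. Amplified reads without molecular identifiers are not independent molecules, so the intervals may be too narrow even for counting error. With Dmc1 left out, the other 8 members summed to 839 to 931 CPM in control and 1000 to 1171 CPM in Eef1g-cKO, a much narrower gap than with Dmc1 included (1191 to 1294 CPM against 2013 to 2802 CPM). This sum includes Brca2, at 228 to 325 CPM in control and 342 to 570 CPM in Eef1g-cKO, so it is not read as a rise of all 8.

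**Figure D1:**
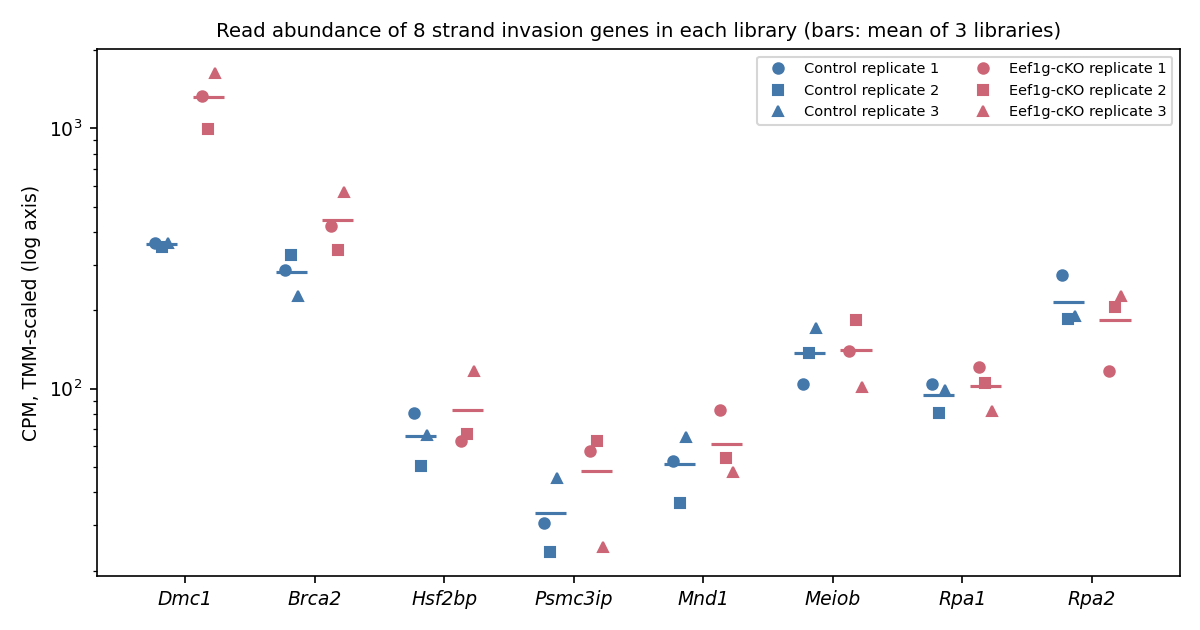
TMM-scaled CPM (log axis) of the 8 members with enough reads to test, in each control (blue) and Eef1g-cKO (red) library, with marker shape for the replicate and bars at the mean of 3 libraries. The 3 Dmc1 points of Eef1g-cKO, from 992 to 1631 CPM, stand well above the control points at 352 to 363 CPM, Brca2 is separated narrowly, and the other 6 genes overlap between genotypes.

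Of the recombinase loaders, Brca2 was higher in Eef1g-cKO by a small margin and Hsf2bp was not called. Brca2 (chr5:150522630-150570329, plus strand), which brings recombinase to ssDNA, had 286, 325 and 228 CPM in control and 420, 342 and 570 CPM in Eef1g-cKO. The groups did not overlap, but the lowest Eef1g-cKO library and the highest control library were close. Its log2 fold change was 0.66 (SE 0.20; 95% interval 0.23 to 1.08; 280 ± 49.1 and 444 ± 116 CPM, SD, n = 3; edgeR adjusted p = 0.0355). The call was kept in only 5 of 17 alternative analyses, with adjusted p from 0.0113 to 0.201. The log2 fold change stayed positive in all 17, between 0.45 and 0.83, and the adjusted p rose above the threshold without any 1 of the control libraries, without Eef1g-cKO replicate 1 and without Eef1g-cKO replicate 3.

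Hsf2bp (chr17:31944769-32034508, minus strand) encodes the germ cell protein that binds BRCA2 and is needed for recombinase foci in spermatocytes. Its libraries held 80.9, 50.4 and 66.6 CPM in control and 63.1, 67.0 and 117 CPM in Eef1g-cKO. Only Eef1g-cKO replicate 3 lay above the control range, and the log2 fold change was 0.30 (SE 0.32; 95% interval -0.37 to 0.97; edgeR adjusted p = 0.590). The ratio of Hsf2bp to Brca2 reads within each library, which does not depend on library scaling, overlapped between genotypes (log2 difference -0.36; two-sided exact permutation p = 0.3, adjusted p = 0.382 over 14 ratios). With 3 libraries against 3, the smallest p that this test allows is 0.1.

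Brme1, Palb2 and Brca1, partners of these loaders, were not called. Brme1, which forms a complex with HSF2BP, had 16.0, 28.3 and 17.9 CPM in control and 33.2, 34.9 and 44.8 CPM in Eef1g-cKO, without overlap (log2 fold change 0.83, SE 0.43, edgeR adjusted p = 0.223). Palb2, the bridge between BRCA1 and BRCA2, ranged from 20.5 to 29.7 CPM in control libraries and from 12.1 to 23.9 CPM in those of Eef1g-cKO (log2 fold change -0.66, SE 0.50, edgeR adjusted p = 0.427). The mean of Brca1 was 92.3 ± 19.9 CPM in control and 94.9 ± 59.2 CPM with Eef1g deleted (SD, n = 3; log2 fold change -0.02, edgeR adjusted p = 0.980). None of these 3 genes passed the test, and the wide spread of Brca1 in Eef1g-cKO came from replicate 3 at 162 CPM, with the other 2 libraries at 72.0 and 50.6 CPM.

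The genes of the Hop2-Mnd1 complex did not differ beyond the spread between libraries. Psmc3ip (chr11:101091823-101095436, minus strand), which encodes HOP2, had 30.5, 23.6 and 45.3 CPM in control and 57.4, 62.7 and 24.7 CPM in Eef1g-cKO. In Eef1g-cKO, 2 libraries were above all controls and replicate 3, with 16 reads, was at the low end of the control range. The log2 fold change was 0.58 (SE 0.41; 95% interval -0.27 to 1.43; edgeR adjusted p = 0.383), so that a doubling of Psmc3ip lies within its interval. A part of its exons, 385 of 1818 bases (21.2%), overlaps Mlx on the opposite strand, and reads there cannot be assigned to 1 gene without strand information.

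Mnd1 (chr3:84087933-84155786, minus strand) had 52.7, 36.2 and 64.9 CPM in control and 82.5, 54.1 and 47.9 CPM in Eef1g-cKO. The groups overlapped, with a log2 fold change of 0.27 (SE 0.34; 95% interval -0.44 to 0.98; edgeR adjusted p = 0.655). The ratio of Mnd1 to Psmc3ip reads also overlapped (log2 difference -0.22, exact permutation p = 0.8, adjusted p = 0.8). Relative to Mnd1, Dmc1 was 2.99-fold higher in Eef1g-cKO: 6.84, 9.65 and 5.55 Dmc1 reads per Mnd1 read in control, and 16.0, 18.3 and 33.5 in Eef1g-cKO (exact permutation p = 0.1, adjusted p = 0.2). Every Eef1g-cKO library lay above every control library, although the design cannot bring such a ratio below the threshold.

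Among the ssDNA-binding proteins, Rpa1 and Rpa2 showed no difference beyond the spread. Rpa1 (chr11:75298166-75348324, minus strand), the large subunit with most of the DNA contacts of the trimer, had 105, 80.8 and 99.1 CPM in control and 121, 105 and 81.9 CPM in Eef1g-cKO. These ranges overlap almost fully (log2 fold change 0.13, SE 0.26, 95% interval -0.41 to 0.67, edgeR adjusted p = 0.800). Rpa2 (chr4:132768332-132778752, plus strand), the middle subunit, which is phosphorylated at damaged DNA, had 272, 185 and 190 CPM in control and 116, 206 and 227 CPM in Eef1g-cKO. It was the 1 tested member with a negative log2 fold change (-0.24, SE 0.25, 95% interval -0.76 to 0.27, edgeR adjusted p = 0.572), and the value was set largely by Eef1g-cKO replicate 1, since without it the log2 fold change was 0.03.

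Rpa3, the small subunit of the same trimer, was called higher. It had 152, 155 and 157 CPM in control and 336, 199 and 207 CPM in Eef1g-cKO (log2 fold change 0.67, SE 0.22, edgeR adjusted p = 0.0478). This call was kept in 7 of 17 alternative analyses; it was lost without Eef1g-cKO replicate 1, which held the highest Rpa3 and the lowest Rpa2 level (log2 fold change 0.42, edgeR adjusted p = 0.273), without any 1 control library, and with a GC content offset (0.26, edgeR adjusted p = 0.488). The ratio of Rpa2 to Rpa3 reads was 1.79, 1.19 and 1.21 in control and 0.348, 1.04 and 1.10 in Eef1g-cKO, without overlap (log2 difference -0.90, or -0.36 without Eef1g-cKO replicate 1; exact permutation p = 0.1, adjusted p = 0.2). The ratio of the other pair, Rpa1 to Rpa2, overlapped between genotypes (log2 difference 0.38, exact permutation p = 0.7, adjusted p = 0.754).

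Meiob (chr17:24804382-24839787, plus strand), the meiosis-specific relative of RPA1, had almost the same mean in both genotypes. Its libraries held 104, 137 and 171 CPM in control and 139, 183 and 102 CPM in Eef1g-cKO. Each genotype covered nearly the same range, and the log2 fold change was 0.06 (SE 0.26; 95% interval -0.47 to 0.60; 137 ± 33.5 and 141 ± 40.6 CPM, SD, n = 3; edgeR adjusted p = 0.906). Its sign depended on the setting, from -0.17 to 0.27 over the 17 alternatives, and no direction is given.

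Spata22 had too few reads to test. This gene (chr11:73329741-73346044, plus strand), the partner of MEIOB, had 0, 1 and 1 reads in control and 0, 4 and 0 reads in Eef1g-cKO, at most 4 in any library. In the annotation, 1025 of its 1274 exon bases (80.5%) are also exons of Gm49340, a gene that starts at the same base, whose promoter is printed above, and reads through into the olfactory receptor gene Olfr20. Of the 9 exons of Spata22, 8 are shared completely, and only 249 bases of the last exon belong to Spata22 alone. Gm49340 had 0 reads in every library, as did Olfr20.

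Counts of other genes with shared exons are given for comparison. Spata22 falls among the 91 protein-coding genes that share 70% to under 90% of their exon bases with a gene on the same strand, of which 75 (82.4%) had at most 3 reads in every library. With 4 reads in Eef1g-cKO replicate 2, Spata22 itself is not among these 75. Of 204 protein-coding genes with at least 90% of their exon bases shared with another gene on the same strand, 203 (99.5%) had at most 3 reads in every library. For protein-coding genes that share no exon base, this was 7104 of 15485 (45.9%). Among 56 genes with at least 90% of their exon bases shared on the opposite strand alone, all 56 had at most 3 reads. Whether shared exons account for the low count of Spata22 was not tested, since the counting settings are not known and 249 of its exon bases are its own. The count was therefore not read as a level, and the ratio of Meiob to Spata22 reads was not formed.

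**Figure D2:**
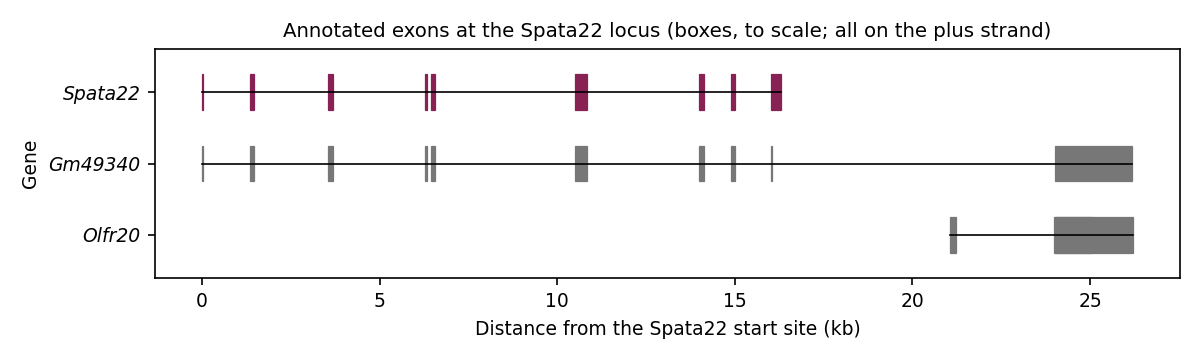
Annotated exons (boxes) of Spata22, Gm49340 and Olfr20 by distance in kb from the start site of Spata22, drawn to scale and on 1 strand. Gm49340 carries the first 8 exons of Spata22 whole and 41 bases of the ninth, leaving 249 bases to Spata22 alone.

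Over the 8 members tested, 2 were higher in Eef1g-cKO (Dmc1 and Brca2), 0 were lower and 6 did not pass (the counts at an unadjusted edgeR p under 0.05 were likewise 2 and 0). Over all genes tested, 7.8% were called higher and 6.01% lower. The median log2 fold change of the members was 0.29, beside -0.05 for all genes tested, with 7 positive values and 1 negative. Meiob, Rpa1 and Rpa2 kept their sign in 10, 15 and 15 of 17 alternative analyses, so no shared direction is read from this tally. With the added requirement of a log2 fold change beyond 1 in size, 1 member was left, Dmc1, against 3.42% of all genes called higher and 4.96% called lower. All 3 Eef1g-cKO libraries lay above all 3 control libraries for 2 members, Dmc1 and Brca2, an arrangement seen in 16.4% of all genes, and below them for 0 members, compared with 18.1% of all genes. The 95% intervals of the other 7 members end below the lower bound of Dmc1 (1.51), the nearest being that of Psmc3ip at 1.43. A doubling or a halving lies outside the intervals of Hsf2bp, Meiob, Mnd1, Rpa1 and Rpa2, and a doubling lies inside those of Brca2 and Psmc3ip.

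**Figure D3:**
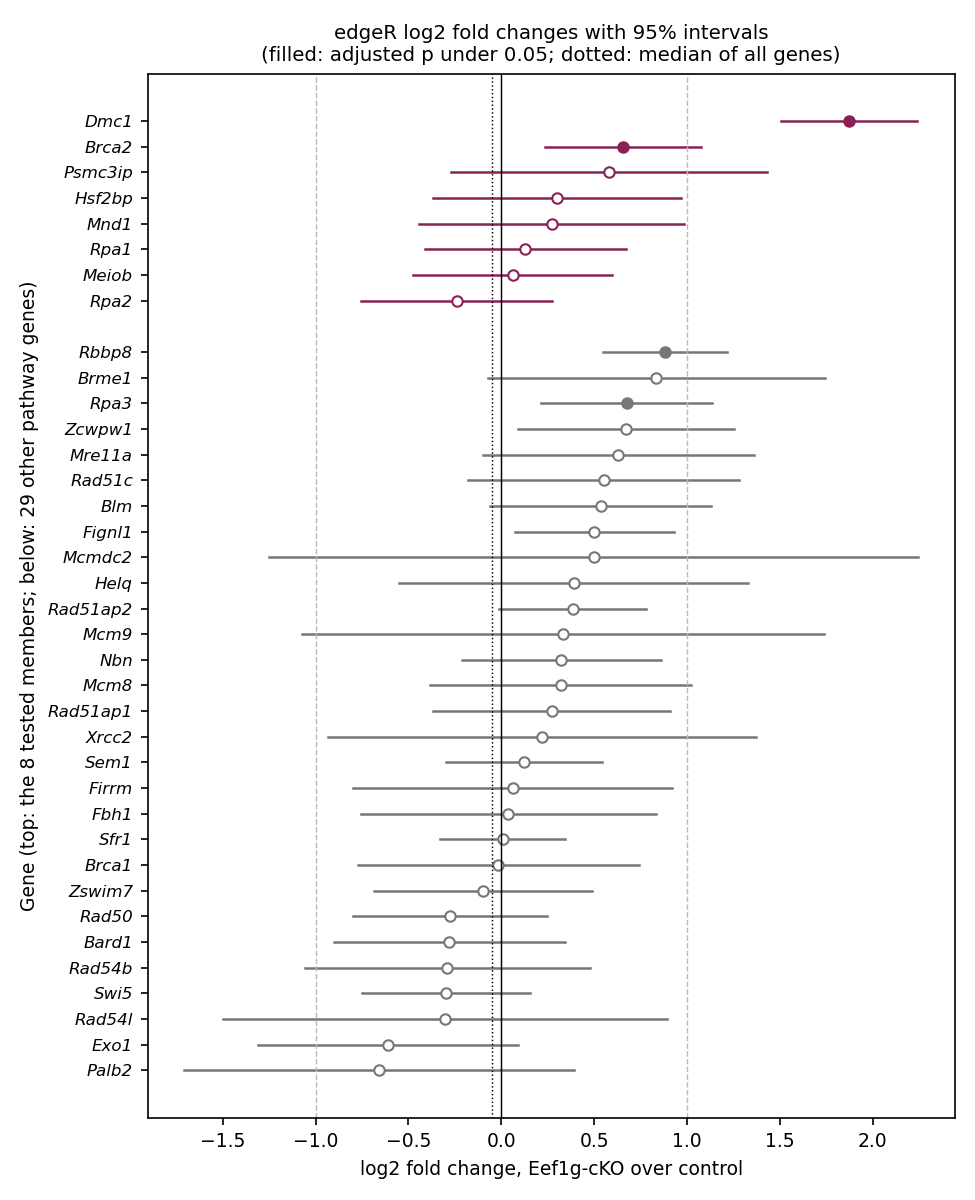
Log2 fold changes of Eef1g-cKO over control with 95% intervals from edgeR for the 8 tested members (purple, top) and 29 of the 30 tested genes of the wider pathway list (grey), filled where the adjusted p passed, with dashed lines at a log2 fold change of 1 in either direction. The point of Dmc1, at 1.87, is the highest drawn, the next being that of Rbbp8 at 0.88. Wide intervals of pathway genes such as Brme1 (-0.07 to 1.74) and Mcmdc2 (-1.25 to 2.24) overlap that of Dmc1 (1.51 to 2.24).

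Compared per length, as CPM per kilobase of gene length (RPKM), the order of levels differed little between genotypes below Dmc1. In control cells, Dmc1 stood first at 147 ± 2.47 RPKM (SD, n = 3), followed by Meiob at 80.6 ± 19.6, Rpa2 at 72.1 ± 16.4 and Mnd1 at 58.6 ± 16.5 RPKM, neighbours that overlapped. A clear gap then separated Hsf2bp at 22.2 ± 5.13, Brca2 at 20.5 ± 3.60, Psmc3ip at 18.2 ± 6.10 and Rpa1 at 17.0 ± 2.23 RPKM, which again overlapped. Although Brca2 had more CPM than Meiob, it thus ranked below it per length, since its transcript is long.

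In Eef1g-cKO, Dmc1 was at 541 ± 131 RPKM, above every other member in every library. Meiob at 83.0 ± 23.9, Mnd1 at 70.3 ± 21.1, Rpa2 at 61.2 ± 19.6, Brca2 at 32.5 ± 8.50, Hsf2bp at 27.8 ± 10.2, Psmc3ip at 26.6 ± 11.3 and Rpa1 at 18.4 ± 3.55 RPKM followed, each overlapping its neighbour. Spata22 is left out of this order for the reason given above. The length of Psmc3ip includes the 385 bases shared with Mlx. If reads there were not counted, its place in both orders is too low, which was not tested. For Hsf2bp and Meiob, the deposited lengths (2973 and 1703 bases) differ from the annotated exon lengths (3589 and 1801 bases). With the latter, an alternative chosen after seeing the data, Meiob stayed second (76.2 RPKM in control, 78.5 in Eef1g-cKO) and Hsf2bp moved down 1 place in each genotype, to 18.4 and 23.0 RPKM.

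Since the L/Z markers were also higher in Eef1g-cKO, each member was set against their summed reads in the same library. For Dmc1 there were 0.0343, 0.0284 and 0.0314 reads per marker read in control and 0.0530, 0.0426 and 0.0566 in Eef1g-cKO, a log2 ratio higher by 0.69 without overlap. The ratio was lower in Eef1g-cKO for the other 7 members. The marker sum itself rose, from 10587 to 12396 CPM in control to 23299 to 28822 CPM in Eef1g-cKO. A gene with unchanged CPM therefore also has a lower ratio, and the log2 fold changes of Meiob and Rpa1 in CPM were 0.06 and 0.13. The share of all genes with a lower ratio was not computed, so these ratios are not read as a decrease of the members. Meiob (log2 difference -1.12), Rpa1 (-1.05) and Rpa2 (-1.43) were below every control library, whereas Hsf2bp (-0.87), Brca2 (-0.51), Psmc3ip (-0.67) and Mnd1 (-0.89) overlapped. The exact permutation p was 0.1 for Dmc1, Meiob, Rpa1 and Rpa2, the smallest possible, with an adjusted p = 0.2 over the 14 ratios. Sycp1 contributes much of this sum, at 5101 CPM on average in control cells against 10487 CPM without Eef1g, so the ratios are in large part ratios to that gene. The 13 tested markers had log2 fold changes from 0.20 (Syce1) to 1.72 (Hormad1), with Sycp1 at 1.04, beside 1.87 for Dmc1. The excess of Dmc1 over the markers thus depends on the marker taken.

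**Figure D4:**
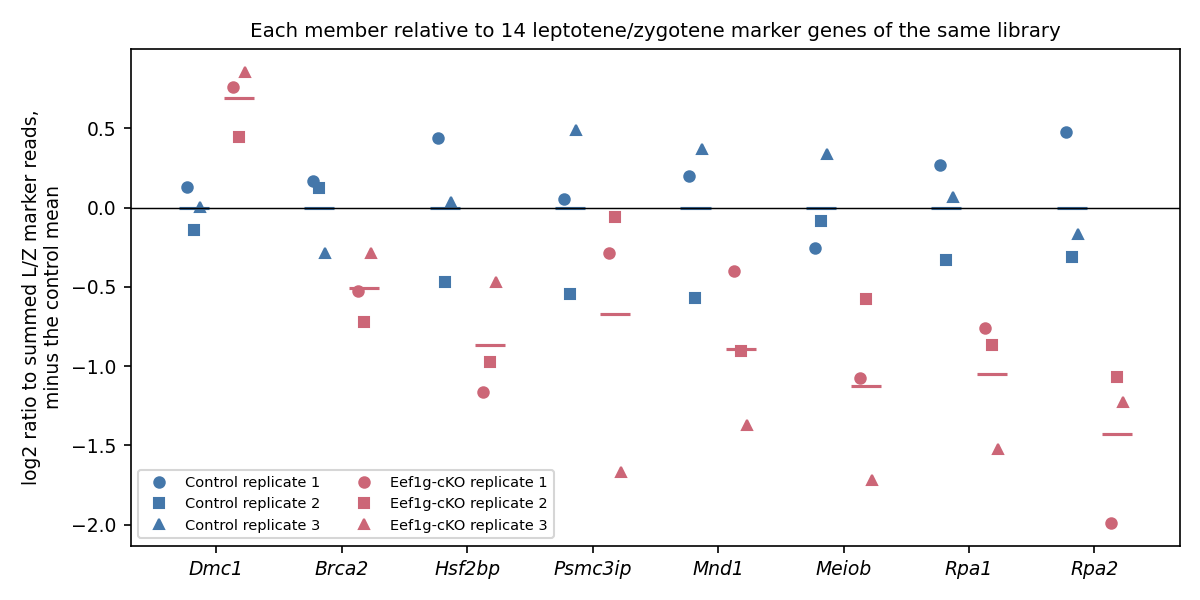
Log2 ratio of each member's reads to the summed reads of 14 L/Z markers in the same library, minus the control mean, for control (blue) and Eef1g-cKO (red) libraries, with bars at the mean of 3. Dmc1 is the only member whose Eef1g-cKO points lie above the control mean, while those of Meiob, Rpa1 and Rpa2 lie below all control points.

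The wider strand invasion pathway was described with a list of 36 genes, of which 30 were tested. In Eef1g-cKO, 2 of them were higher (Rbbp8 and Rpa3), 0 were lower and none was beyond a log2 fold change of 1, with 21 positive and 9 negative values and a median of 0.30 (the counts at an unadjusted p were 4 and 0). The called share was thus near the 7.8% of all genes. Rbbp8 encodes CtIP, which starts the resection that makes the ssDNA tails; it had 301, 281 and 298 CPM in control and 594, 525 and 500 CPM in Eef1g-cKO (log2 fold change 0.88, SE 0.16, edgeR adjusted p = 0.00127). Its groups were widely separated, and the call was kept in all 17 alternatives. Rad51ap2 stood at 213 ± 31.7 CPM in control, against 278 ± 29.5 CPM (SD, n = 3), without overlap but not past the threshold (edgeR adjusted p = 0.195). Of the other abundant genes, Sem1 (the small BRCA2-binding protein; log2 fold change 0.12), Sfr1 (of the SWI5-SFR1 recombinase cofactor; 0.01) and Fignl1 (a recombinase filament remodeller; 0.50, edgeR adjusted p = 0.115) did not pass. Rad51b, Rad51d, Xrcc3, Swsap1, Rad52 and Spidr had too few reads to test.

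The steps before and after strand invasion gave further context. Of 8 break formation genes, 7 were tested and 2 were higher in Eef1g-cKO, Ankrd31 (log2 fold change 0.69, edgeR adjusted p = 0.0194, passing in 10 of 17 alternatives) and Iho1 (1.04, edgeR adjusted p = 0.00354), while Spo11, the break enzyme itself, was at 0.07. Prdm9 (0.84), Mei4 (0.73) and Top6bl (0.66) did not pass. Of 13 crossover genes, 11 were tested and 3 were higher: the helicase Hfm1 (1.70), Msh4 (1.55) and Tex11 (0.91). Ccnb1ip1 (0.64), Spo16 (0.02) and Mlh3 (-0.27) did not pass. None of either list was lower. Over all genes tested, 7.8% were higher and 6.01% lower. The median log2 fold changes of the 2 lists were 0.69 and 0.64, against 0.29 for the members and -0.05 for all genes.

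Genes whose pattern over the 6 libraries was among the most like that of Dmc1 were Dip2c (Pearson r = 0.9986), Lnpk (0.997), Armc8 (0.9962) and Snrpb2 (0.9955), from log2 CPM. As Dmc1 separates the genotypes, these values largely state that the same holds for those genes, and 210 genes (2.47% of those tested) had r over 0.95. For Meiob, whose pattern does not follow genotype, genes among the closest were Pramel3 (0.9884), Kdm3b (0.9693), Gm43581 (0.9676) and Ripk4 (0.9675), and 13 genes had r over 0.95. All 6 points share library depth and scaling with both genes of a pair, and no test was made.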

How the data were processed

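RNA-seq was analysed for 3 control and 3 Eef1g-cKO libraries of sorted L/Z spermatocytes. Full-length cDNA was amplified from polyA RNA without molecular identifiers and sequenced as paired-end reads. The authors trimmed reads with fastp, aligned them to GRCm38 (mm10) with HISAT2 and counted them per gene with featureCounts; the strand and overlap settings are not given in the sources used here, and the submitters' notes also name DESeq2. The deposited table holds raw counts per gene, 763133 to 2617648 reads a library.

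Genes were kept by filterByExpr (minimum count 10, minimum total 15), which left 8513 of 54532 genes and 98.1% of reads, and tested with edgeR 4.0.16 (R 4.3.3; TMM scaling, robust quasi-likelihood F test, genotype as the only term), with Benjamini-Hochberg adjustment over all genes tested and a threshold of 0.05. The SE was derived from the log2 fold change and its F value. CPM and RPKM used TMM-scaled totals and the deposited gene lengths. Ratios within a library added 0.5 reads to each side and were compared by exact permutation tests. Alternatives included DESeq2 1.42.0, limma 3.58.1, other scalings and filters, thinning, a GC offset, a replicate block and leaving out each library. Of the gene IDs with a reference entry, 98.3% had the same position in GENCODE M21, the annotation used for exons, but 2 of the 9 members, Hsf2bp and Meiob, did not. Any pair of libraries differed beyond sampling noise (chi-square divided by its degrees of freedom at least 6.37). The edgeR script was tested on simulated data. All 9 members and the 6 most abundant genes of the pathway, break formation and crossover lists (plus Rad51ap2, Rpa3, Brme1, Palb2 and Brca1) are named, as are genes from the 5 most like Dmc1 and the 5 most like Meiob; items withheld from this account are not reported here. Members and lists were chosen with earlier results of these data known.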

Additional observations from a re-analysis of the deposited data

How the results depend on the processing

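Over 17 alternatives, the higher level of Dmc1 kept its direction and its call (log2 fold change 1.66 to 2.06; adjusted p at most 0.000119), and it was the 1 member beyond the fold limit in each. The count of members called higher fell from 2 to 1, with Brca2 lost, under upper-quartile scaling, library totals only, at least 10 reads in every library, the replicate block, the GC content offset, block and GC offset together, and thinning to the smallest library; it was 1 to 2 with 1 library left out. The median of the members was 0.087 with library totals only and 0.11 to 0.40 with 1 library left out. The pathway genes called higher fell from 2 to 1 with upper-quartile scaling, library totals, the 10-read filter, the replicate block, the GC offset and both together, and were 1 to 3 with 1 library left out; those called lower were 0 to 1 (Exo1, -1.11 without Eef1g-cKO replicate 1). Signs turned for members that were not called: Meiob was at -0.058 (upper-quartile), -0.12 (library totals), -0.071 (10-read filter), -0.17 (GC offset), -0.17 (replicate block and GC offset) and -0.16 to 0.27 (1 library left out); Rpa1 at -0.056 (library totals) and -0.0081 (10-read filter); Rpa2 at 0.018 (GC offset) and -0.36 to 0.033 (1 library left out). Of the other genes near 0, Sem1 was at -0.0012 (upper-quartile), -0.055 (library totals), -0.011 (10-read filter), -0.023 (GC offset), -0.055 (replicate block and GC offset) and -0.0066 to 0.38 (1 library left out); Sfr1 at -0.11, -0.19, -0.13, -0.044, -0.041 and -0.053 to 0.051 in the same order, and at -0.019 with limma; Spo11 at -0.055, -0.12, -0.069 (the first 3 of these), -0.17 (thinned) and -0.081 to 0.23 (1 library left out); and Brca1 at 0.0083 (no filter), 0.0014 (DESeq2), 0.014 (GC offset) and -0.58 to 0.32 (1 library left out). Spo16 was at -0.10, -0.20 and -0.14 (upper-quartile, library totals, 10-read filter), -0.15 (limma), -0.12 (replicate block), -0.093 (replicate block and GC offset) and -0.24 to 0.47 (1 library left out), and Mlh3 at 0.018 (thinned) and -0.47 to 0.024 (1 library left out). With 1 library left out, the log2 difference of Mnd1 to Psmc3ip ran from -0.48 to 0.091 and that of Rpa1 to Rpa2 from -0.046 to 0.71. The cause was not tested. The median of all genes itself shifted by -0.12 with upper-quartile scaling and -0.19 with library totals. Without a filter it was lower by 0.25, but over 22130 genes in place of 8513, so that value is not a shift of the same genes. Same-numbered libraries did not deviate together (correlations -0.04, 0.02 and -0.05), and 1 of 3 correlated best with its own number. With 3 libraries per genotype, these values cannot exclude that the numbers pair samples. Why calls were lost under the block was not tested. The depth of Eef1g-cKO replicate 3 limits Psmc3ip, Mnd1 and Rpa1, which had 16, 31 and 53 reads there.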
